A study of Saccharomyces cerevisiae and Saccharomyces pastorianus with 78 samples.

Results

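CIT3 (YPR001W), PDH1 (YPR002W) and ICL2 (YPR006C) encode the enzymes that carry propionate through the 2-methylcitrate cycle of Saccharomyces cerevisiae. They were chosen by their systematic names, 3 of the 7127 rows in the read-count table of strain BY4741, and were proposed because their counts in these same libraries differed between groups. Their levels, changes and order are therefore given as a description, with no test.

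BY4741 is a haploid laboratory strain of mating type a, labelled wild type here, and all cultures were grown in YPD, a rich medium with glucose, at 25 °C. Each culture was divided into a pair of aliquots, and poly(A) RNA was sequenced from the cells. The groups were 7% EtOH and 0.01% SDS, each collected 6 times, from 0.5 to 20 h after the addition (at 0.5, 1, 2, 4 and 8 h and last at 20 h), and a control, giving 13 groups of 3 biological replicates. The control was withdrawn before the addition from the aliquot that then received ethanol and further medium, so both stresses share the same control libraries and the SDS aliquot has none of its own. No untreated culture was followed over time, so the effect of an agent and of time in culture cannot be told apart within a stress.

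The 39 libraries held 3105804 to 21167236 counted reads each, with a median of 7706767. Both extremes were EtOH 8 h libraries, and the libraries of the other 12 groups held 6410729 to 9396494. The markers deleted in BY4741 (LEU2, MET17 and URA3) had 0 counts in all 39 libraries. HIS3, whose allele in BY4741 is an internal deletion that leaves part of the gene, had 310 to 2650 counts. The a-cell genes STE2, STE6 and BAR1 had 935 to 6430, 622 to 4858 and 300 to 2738 counts. MFA1, MFA2 and AGA2, also a-cell genes, had 87 to 2112, 135 to 3567 and 41 to 574. The alpha-cell genes MF(ALPHA)1, STE3, MF(ALPHA)2 and SAG1 had 0 to 27, 8 to 224, 37 to 264 and 147 to 1107 counts. The range of SAG1 overlapped that of each a-cell gene, so these counts did not separate the sets fully.

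In yeast mitochondria, propionyl-CoA from odd-chain fatty acids and from the breakdown of threonine is condensed with oxaloacetate by the methylcitrate synthase Cit3. The dehydratase Pdh1 acts on the resulting 2-methylcitrate, aconitase completes the rearrangement to 2-methylisocitrate, and the lyase Icl2 cleaves that into succinate and pyruvate. Glucose represses many genes of alternative carbon use in this species, through repressors such as Mig1 and through the activators Cat8, Sip4 and Adr1, whose action it limits.

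The 3 genes lie on the right arm of chromosome XVI, in coordinates of build R64. CIT3 spans 556377 to 557837 on the plus strand, and the centromere CEN16 ends at 556073, just upstream. PDH1 follows on the same strand at 558385 to 559935, after a gap of 547 bp. ICL2 lies further along, on the minus strand, at 567269 to 568996. The 300 bases before each start codon are shown, because CIT3 and PDH1 run in the same direction yet differed in how far they moved, and because ICL2 is read from the other strand. Capitals mark matches to the core of the carbon source-responsive element bound by Cat8 and Sip4 (CCNNNNNNCCG), to an Adr1-type element (TTGGAG, and also TTGGGG) and to a Mig1-type element, searched on both strands. The Mig1-type letters were GCGGGG, also with T for its C, and CCGGGG, again also with T for its second C. Sequences are from the RefSeq R64 genome, written 5′ to 3′ on the strand of the gene.
CIT3, chrXVI:556077-556376, plus strand: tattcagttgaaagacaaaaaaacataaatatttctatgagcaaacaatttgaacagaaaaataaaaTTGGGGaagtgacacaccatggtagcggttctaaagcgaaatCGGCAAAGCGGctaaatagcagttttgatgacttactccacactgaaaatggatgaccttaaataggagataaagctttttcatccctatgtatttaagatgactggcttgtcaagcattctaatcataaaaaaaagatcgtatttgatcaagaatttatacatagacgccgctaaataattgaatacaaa
PDH1, chrXVI:558085-558384, plus strand: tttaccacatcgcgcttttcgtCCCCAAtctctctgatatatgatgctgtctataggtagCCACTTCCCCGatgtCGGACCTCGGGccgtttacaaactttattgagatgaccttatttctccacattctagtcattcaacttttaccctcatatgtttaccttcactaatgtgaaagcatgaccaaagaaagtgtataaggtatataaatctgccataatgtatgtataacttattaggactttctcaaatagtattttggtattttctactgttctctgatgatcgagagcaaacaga
ICL2, chrXVI:568997-569296, minus strand: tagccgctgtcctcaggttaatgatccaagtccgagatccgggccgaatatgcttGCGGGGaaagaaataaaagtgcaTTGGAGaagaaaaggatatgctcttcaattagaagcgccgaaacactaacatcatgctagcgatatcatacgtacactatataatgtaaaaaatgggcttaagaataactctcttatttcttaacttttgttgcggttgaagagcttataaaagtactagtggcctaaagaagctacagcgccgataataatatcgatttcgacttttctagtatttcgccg

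The PDH1 window held 2 matches to the core CCNNNNNNCCG and the CIT3 window 1, and the ICL2 window had 0. Of 6001 windows of this length upstream of yeast genes, 11.1% held at least 1. An Adr1-type match stood in all 3 windows, and in 15.2% of all windows. ICL2 alone of the 3 had a Mig1-type match, which 12% of all windows held. CCAAT, the letters bound by the Hap2/3/4/5 complex, occurred once in each and in 41.8% of all windows, and each of the 3 overlapped the Adr1-type match. GTCAC, the R box of the retrograde factors Rtg1 and Rtg3, occurred in the CIT3 window and in 26.5% of all windows. The stress response element AGGGG occurred in none of the 3, and in 22.2% of all windows. A match is a string of letters, and none was tested for binding here.

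In EtOH all 3 genes stayed near their control level for the first 2 h, whereas in SDS all 3 stood above it within 0.5 h. PDH1 moved the most. At 8 and 20 h of EtOH it reached 2.74-fold and 4.16-fold of its control level. At 1 h of SDS it was 14.4-fold that of the controls, a log2 change of 3.84 ± 0.21 (SE), which placed it 9th by log2 change among the 6101 genes that passed the low-count filter. ICL2 was 3.19-fold its control level at 1 h of SDS, ranked 134, and CIT3 2.29-fold, ranked 271. Levels are given in CPM, counts scaled to the depth and composition of each library. Since RNA came from whole cultures, fewer cells with a transcript and less of it per cell cannot be told apart.

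**Figure D1:**
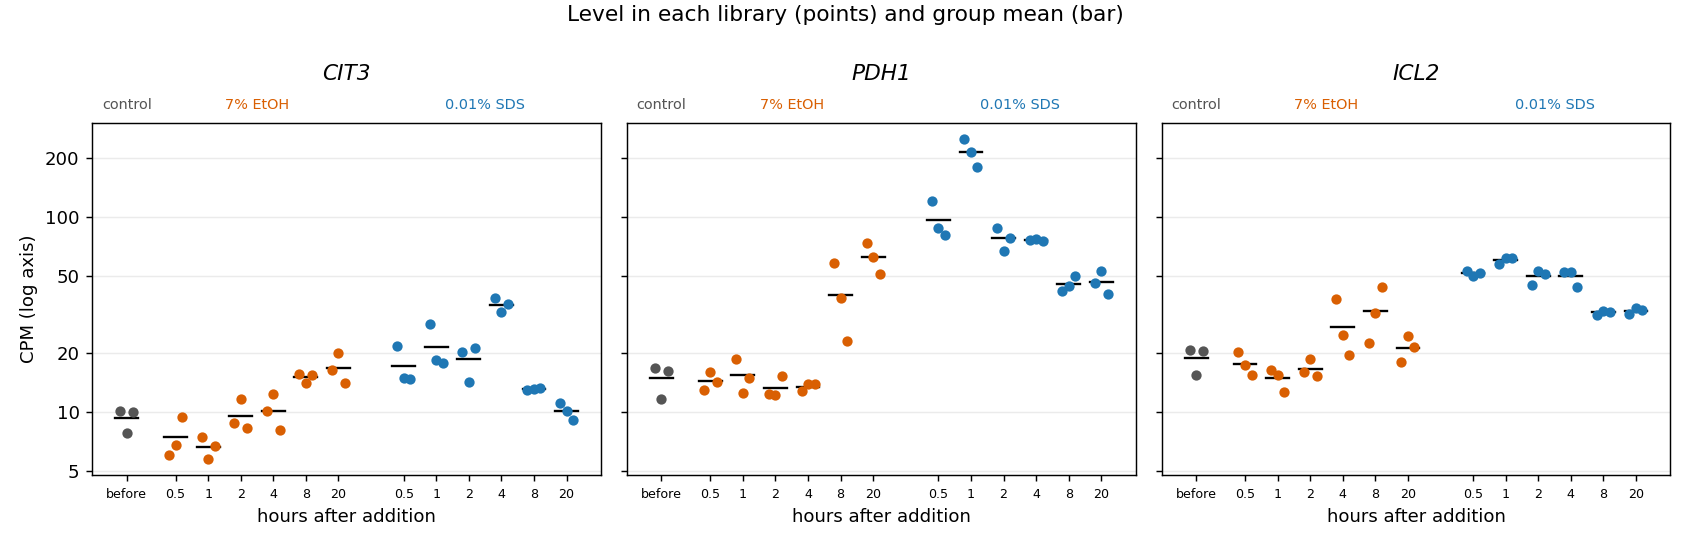
Level of CIT3, PDH1 and ICL2 in CPM on a log axis in each of the 39 libraries (points, 3 per group) with the group mean (bar), for the control and for 0.5 to 20 h of 7% EtOH and of 0.01% SDS. EtOH libraries of 0.5 to 2 h lay near the control points, while PDH1 peaked at a mean of 214 CPM at 1 h of SDS and CIT3 at 35.5 CPM at 4 h of SDS.

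CIT3, the synthase that opens the cycle, had 6.06, 6.83 and 9.41 CPM at 0.5 h of EtOH, against 10.2, 7.85 and 9.98 CPM in the controls. In EtOH it had 7.46, 5.74 and 6.70 CPM at 1 h. The 1 h libraries were the lowest group for this gene, and all 3 lay just below the lowest control, with a log2 change of -0.49 ± 0.22. Its lowest count, 41 reads in EtOH 1 h replicate 2, has an exact Poisson 95% interval of 29.4 to 55.6 reads, which covers counting error only. CIT3 had 8.81, 11.7 and 8.28 CPM at 2 h of EtOH and 10.1, 12.3 and 8.16 CPM at 4 h. Both groups overlapped the controls. It had 15.7, 14.1 and 15.6 CPM at 8 h and 16.4, 20.0 and 14.1 CPM at 20 h of EtOH. All 6 of these libraries were above every control, with log2 changes of 0.68 ± 0.20 at 8 h and 0.84 ± 0.20 at 20 h.

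In SDS, CIT3 had its highest level at 4 h. It stood at 38.2, 32.4 and 35.8 CPM there, all above the highest control, a log2 change of 1.92 ± 0.19. At 0.5 h of SDS it stood at 21.8, 14.9 and 14.9 CPM, and at 1 h at 28.2, 18.6 and 17.8 CPM. At 2 h of SDS it stood at 20.3, 14.3 and 21.3 CPM. From 0.5 to 4 h every SDS library was thus above every control. The log2 changes of CIT3 at 0.5, 1 and 2 h of SDS were 0.88, 1.20 and 1.00, each with an SE of 0.20. At 8 h of SDS the 3 libraries had 12.96, 13.1 and 13.3 CPM, still above the controls. At 20 h they had 11.1, 10.1 and 9.08 CPM and overlapped the controls, with a log2 change of 0.12 ± 0.21.

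PDH1, the dehydratase of the cycle, had 12.95, 15.99 and 14.2 CPM at 0.5 h of EtOH, against 16.8, 11.7 and 16.2 CPM in the controls. In EtOH it had 18.8, 12.6 and 15.0 CPM at 1 h. It had 12.5, 12.2 and 15.3 CPM at 2 h and 12.8, 13.9 and 13.9 CPM at 4 h. These 12 libraries overlapped the controls in each of the 4 groups, and the log2 changes lay between -0.16 and 0.06. At 8 h of EtOH the replicates had 58.3, 38.2 and 23.1 CPM, all above the controls but more than a factor of 2 apart. At 20 h they had 73.2, 62.5 and 50.8 CPM, for a log2 change of 2.06 ± 0.21.

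In SDS, PDH1 had 119.7, 87.8 and 80.3 CPM at 0.5 h. At 1 h of SDS it had 249.9, 214 and 179 CPM. The highest library of any other group, at 0.5 h of SDS, had 119.7 CPM. Its SDS level then came down in steps, with 87.9, 66.8 and 77.6 CPM at 2 h and 75.7, 76.6 and 75.1 CPM at 4 h. It had 41.7, 44.0 and 49.9 CPM at 8 h of SDS and 45.6, 53.0 and 40.2 CPM at 20 h. All 18 SDS libraries were above all 3 controls. The log2 changes of PDH1 in SDS were 2.68, 3.84, 2.38, 2.35, 1.60 and 1.64 from 0.5 to 20 h, with SEs of 0.21 to 0.22.

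ICL2, the lyase that closes the cycle, had 20.3, 17.5 and 15.5 CPM at 0.5 h of EtOH, against 20.7, 15.4 and 20.5 CPM in the controls. In EtOH it had 16.5, 15.5 and 12.6 CPM at 1 h, and 15.99, 18.6 and 15.4 CPM at 2 h. All 3 groups overlapped the controls. At 4 h of EtOH the replicates spread to 37.8, 25.0 and 19.6 CPM, and at 8 h to 22.5, 32.3 and 43.9 CPM. The 8 h libraries all lay above the controls, with a log2 change of 0.76 ± 0.18. At 20 h ICL2 had 18.2, 24.4 and 21.6 CPM and overlapped the controls again, with a log2 change of 0.18 ± 0.19. At this time PDH1 was at its highest EtOH level and ICL2 close to control.

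In SDS, ICL2 had 52.4, 50.0 and 51.7 CPM at 0.5 h. At 1 h of SDS it had 57.2, 61.8 and 61.7 CPM, its highest group, and at 2 h 44.6, 53.0 and 50.7 CPM. It had 52.3, 52.2 and 43.9 CPM at 4 h of SDS. These 12 libraries stayed between 43.9 and 61.8 CPM, where PDH1 had a peak at 1 h. It had 31.4, 33.1 and 32.7 CPM at 8 h of SDS and 31.7, 34.2 and 33.4 CPM at 20 h. All 18 SDS libraries were above all 3 controls, with log2 changes of 1.44, 1.67, 1.39, 1.39, 0.78 and 0.81 from 0.5 to 20 h (SE 0.18 each).

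The EtOH 8 h group holds both the deepest and the shallowest library. Replicate 3, the shallowest, had the lowest PDH1 and the highest ICL2 of the group, and replicate 1 had the reverse. Without replicate 3 the log2 change at 8 h of EtOH was 1.67 for PDH1, 0.56 for ICL2 and 0.66 for CIT3. Without replicate 2, the deepest, it was 1.51 for PDH1, 0.76 for ICL2 and 0.74 for CIT3. Without replicate 1 it was 1.18 for PDH1, 1.03 for ICL2 and 0.70 for CIT3. The part of depth in this spread was not tested.

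Across the 13 groups, the mean level of CIT3 was highest at SDS 4 h, followed by SDS 1 h, SDS 2 h, SDS 0.5 h and EtOH 20 h. EtOH 8 h, SDS 8 h, EtOH 4 h, SDS 20 h, EtOH 2 h, the control, EtOH 0.5 h and EtOH 1 h came after these. SDS 4 h did not overlap SDS 1 h, EtOH 8 h did not overlap SDS 8 h, and SDS 8 h did not overlap EtOH 4 h. All other neighbours in this order overlapped. For PDH1 the order was SDS 1 h, SDS 0.5 h, SDS 2 h, SDS 4 h, EtOH 20 h, SDS 20 h, SDS 8 h, EtOH 8 h, EtOH 1 h, control, EtOH 0.5 h, EtOH 4 h and EtOH 2 h. Breaks without overlap lay below SDS 1 h, below SDS 4 h and below EtOH 8 h. For ICL2 the order was SDS 1 h, SDS 0.5 h, SDS 4 h, SDS 2 h, SDS 20 h, EtOH 8 h, SDS 8 h, EtOH 4 h, EtOH 20 h, control, EtOH 0.5 h, EtOH 2 h and EtOH 1 h. SDS 1 h did not overlap SDS 0.5 h, and SDS 2 h did not overlap SDS 20 h, while from SDS 20 h on every group overlapped the next.

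The 3 genes were counted by 2 rules, each beside the share of all 6101 tested genes that met the same rule. A gene was called at an adjusted p under 0.05 and an absolute log2 change of at least 1 (edgeR quasi-likelihood test, Benjamini-Hochberg adjustment). Since the genes were chosen on these same contrasts, nothing is read from the counts. In EtOH 0 of the 3 were past these limits at 0.5 h beside 2.18% of all genes, at 1 h beside 2.34%, at 2 h beside 2.84% and at 4 h beside 5.02%. PDH1 alone, 1 of 3, was past them at 8 h of EtOH beside 10.2% and at 20 h beside 13.9%. In SDS 2 of 3 were past them at 0.5 h beside 19.1%, 3 of 3 at 1 h beside 11.3%, 2 of 3 at 2 h beside 9.47% and 3 of 3 at 4 h beside 10.5%. It was 1 of 3, PDH1, at 8 h of SDS beside 6.15% and at 20 h beside 4.67%.

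By the second and looser rule, the libraries of a group did not overlap the controls. In EtOH this held for 0 of 3 at 0.5 h beside 44% of all genes, 1 of 3 at 1 h beside 42.8%, 0 of 3 at 2 h beside 46.4% and 0 of 3 at 4 h beside 53.7%. It held for 3 of 3 at 8 h of EtOH beside 60.4% and for 2 of 3 at 20 h beside 55.1%. In SDS it held for 3 of 3 at 0.5 h beside 71.2%, at 1 h beside 59.5%, at 2 h beside 58.3%, at 4 h beside 66% and at 8 h beside 57.9%, and for 2 of 3 at 20 h beside 53.8%. Libraries that did not overlap were thus common among all genes.

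Set directly against SDS at the same time, EtOH cultures had less of all 3 transcripts through 4 h. The EtOH aliquot had received further medium along with the ethanol, so this contrast need not reflect the agents alone. The EtOH minus SDS log2 difference for PDH1 was -2.73 ± 0.21 at 0.5 h and -3.79 ± 0.21 at 1 h, and the later values were -2.53 ± 0.22 (2 h) and -2.49 ± 0.22 (4 h). For ICL2 it was -1.53, -2.01, -1.57 and -0.85 at these times (SE 0.17 to 0.18), and for CIT3 -1.21, -1.69, -0.97 and -1.80 (SE 0.19 to 0.21). No EtOH library overlapped an SDS library for any of the 3 genes from 0.5 to 4 h. At 8 h the differences were 0.19 for CIT3, -0.15 for PDH1 and -0.01 for ICL2. The difference of PDH1 at 8 h was 0.07 without EtOH replicate 3. At 20 h they were 0.73 ± 0.20 for CIT3, 0.42 ± 0.19 for PDH1 and -0.63 ± 0.18 for ICL2, so the 3 genes no longer differed in the same direction.

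Between the stresses, 3 of 3 genes were past the limits for a call at 0.5 h beside 24.1% of all genes and at 1 h beside 15%. It was 2 of 3 at 2 h beside 11.3% and at 4 h beside 11.1%, and 0 of 3 at 8 h beside 8.67% and at 20 h beside 13.8%. The libraries of EtOH and SDS did not overlap for 3 of 3 at 0.5 h beside 73.8% of all genes, at 1 h beside 63.2%, at 2 h beside 58.7% and at 4 h beside 60.7%. This held for 1 of 3 at 8 h, CIT3, beside 55.3%, and for 2 of 3 at 20 h, CIT3 and ICL2, beside 53.3%. Averaged over the 6 times, the log2 change against control was 0.54 in EtOH and 2.41 in SDS for PDH1, 0.14 in EtOH and 1.25 in SDS for ICL2, and 0.14 in EtOH and 0.93 in SDS for CIT3.

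The ratio of 2 genes within a library does not depend on how libraries are scaled. In EtOH the group mean of PDH1 per CIT3, by coding length, stayed between 1.28 and 2.18 through 4 h, and was 2.48 ± 1.06 at 8 h and 3.52 ± 0.65 at 20 h. PDH1 was at 9.55 ± 1.26 times CIT3 at 1 h of SDS, against 1.495 ± 0.080 times in the controls (SD, n = 3 each). The ratio was 5.27 ± 0.24 at 0.5 h of SDS, 3.98 ± 0.49 at 2 h and 2.02 ± 0.18 at 4 h, where CIT3 peaked. It was 3.24 ± 0.26 at 8 h and 4.32 ± 0.55 at 20 h of SDS, so it fell and then stood higher again while both genes came down. The lowest SDS library of any time was at 1.86, above the highest control at 1.56. All libraries of EtOH 1 h, at 2.07 to 2.37, and of EtOH 20 h, at 2.94 to 4.22, were also above that control. Each other EtOH group had a library below it.

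PDH1 was at 3.32 ± 1.02 times ICL2 at 20 h of EtOH and at 3.98 ± 0.83 times at 1 h of SDS, against 0.875 ± 0.029 times in the controls. From 2 to 20 h of SDS that ratio lay between 1.55 and 1.77. CIT3 was at 0.934 ± 0.150 times ICL2 at 20 h of EtOH and at 0.855 ± 0.115 times at 4 h of SDS, against 0.586 ± 0.014 times in the controls. At 20 h of SDS it was lowest, at 0.362 ± 0.048 times. In level per coding length at 1 h of SDS, PDH1 had 138, ICL2 34.9 and CIT3 14.7 CPM per kb. ICL2 had 10.9, PDH1 9.60 and CIT3 6.39 CPM per kb in the controls, where PDH1 was thus below ICL2.

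**Figure D2:**
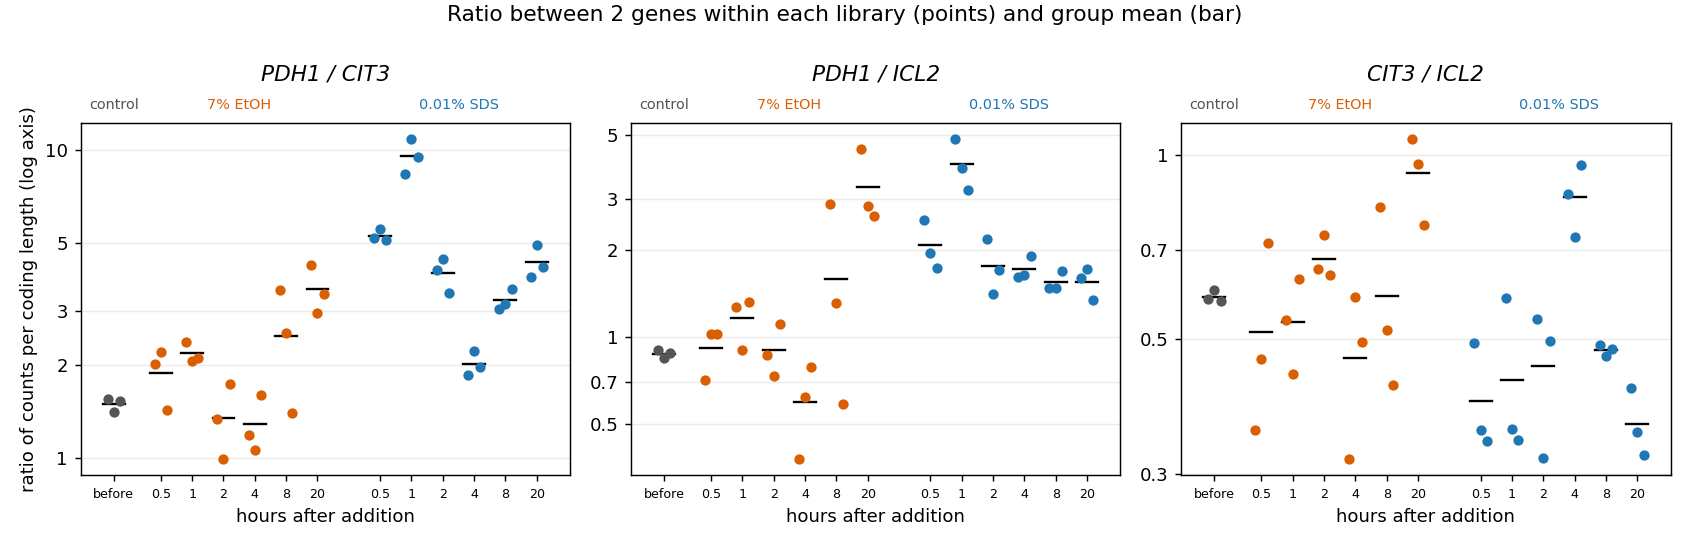
Ratio of PDH1 to CIT3, PDH1 to ICL2 and CIT3 to ICL2, each as counts per coding length within 1 library on a log axis (points, 3 per group; bar, group mean), by hours after 7% EtOH or 0.01% SDS. PDH1 per ICL2 was at 3.32 at 20 h of EtOH against 0.875 in the controls, and PDH1 per CIT3 at 9.55 at 1 h of SDS against 1.495.

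Over the 13 group means of log2 CPM, the pattern of PDH1 correlated with that of ICL2 at Pearson r = 0.880, CIT3 with ICL2 at 0.817 and CIT3 with PDH1 at 0.814. These groups share their control libraries, and the genes were chosen for the pattern, so the values are descriptions. None of the 3 was among the 5 genes most like another: ICL2 ranked 124 for PDH1, PDH1 ranked 209 for CIT3, and ICL2 ranked 200 for CIT3. In the reverse direction PDH1 ranked 148 for ICL2, CIT3 ranked 332 for PDH1, and CIT3 ranked 367 for ICL2. Within groups, the deviations of the 39 libraries from their group means correlated at 0.416 for CIT3 and PDH1, 0.083 for CIT3 and ICL2, and -0.422 for PDH1 and ICL2. Without the EtOH 8 h libraries these were 0.565, 0.11 and -0.063, so the negative value rested on that group.

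By this measure over the 13 groups, the 5 genes most like CIT3 were GND2, a minor 6-phosphogluconate dehydrogenase (r = 0.962), HEF3, a paralogue of a translation elongation factor (0.946), GRE1, a hydrophilin (0.946), GPG1 (0.943) and NQM1, a transaldolase paralogue (0.936). GND2 had a log2 change of 3.90 ± 0.21 at 4 h of SDS. Since these genes were picked for their likeness over the same 13 groups, such changes follow from the choice and were not tested. The 5 most like PDH1 were CYC3, the cytochrome c heme lyase (0.970), AVT7, a vacuolar amino acid transporter (0.955), ECM4 (0.953), YDR248C (0.953) and MLS1, the malate synthase of the glyoxylate cycle (0.949). CYC3 had log2 changes of 0.81 ± 0.11 at 20 h of EtOH and 1.38 ± 0.11 at 1 h of SDS. The 5 most like ICL2 were INM2, an inositol monophosphatase (0.985), TMH11 (0.970), FUB1 (0.962), ATP15, a subunit of the mitochondrial ATP synthase (0.962), and PLN1, a lipid droplet protein (0.959). By Spearman correlation only INM2 stayed among the 5 most like genes, and without the 20 h groups GND2, HEF3, CYC3, YDR248C and INM2 did.

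Of the 8 other protein-coding genes between CIT3 and ICL2 and next to them, SNF8, HAT1, YPR003C, AIM45 and HAA1 were called at no time against control. YPR003C, a putative sulfate transporter directly downstream of PDH1 among the coding genes, was called lower in EtOH than in SDS at 4 h, with a log2 difference of -1.06 ± 0.12 (edgeR adjusted p = 7.36e-09). HAL1, the halotolerance gene next to ICL2, fell at 1 h of SDS by 1.08 on the log2 scale (edgeR adjusted p = 4.27e-05), at 9.89 ± 1.02 CPM against 20.8 ± 2.29 CPM in the controls (SD, n = 3 each). ICL2 was at its highest in those same libraries. HAL1 was at -0.55 to -0.45 at the other SDS times, with no call. It was also lower at 0.5, 1 and 2 h of EtOH, at -0.73, -0.86 and -0.62, again with no call. ICL2 overlapped the controls at these EtOH times. AIM45, a putative electron transfer flavoprotein subunit, had at most a log2 change of 0.69 ± 0.08, at 20 h of SDS. HAA1, the activator of the weak acid response, had a log2 change of at most 0.67 ± 0.11, at 20 h of EtOH.

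REC8, a gene of meiotic cohesin that lies upstream of ICL2 on the same strand, rose in both stresses. It stood at 13.5 ± 2.04 CPM at 8 h of EtOH and at 5.59 ± 1.22 CPM at 4 h of SDS, against 0.887 ± 0.241 CPM in the controls (SD, n = 3 each). The log2 changes were 3.94 ± 0.42 (edgeR adjusted p = 4.09e-09) and 2.64 ± 0.45 (edgeR adjusted p = 1.12e-05). REC8 was also called at 4 and 20 h of EtOH and at 0.5, 1, 2 and 8 h of SDS. The call at 0.5 h of SDS (1.22 ± 0.52, edgeR adjusted p = 0.0433) was lost without any 1 of the 3 controls or without SDS 0.5 h replicate 1 or 3, with adjusted p of 0.057 to 0.146. ULA1, which acts in Rub1 conjugation, fell at 8 h of SDS by 1.08 on the log2 scale (edgeR adjusted p = 2.8e-07). Its call at 1 h of EtOH, at -1.0, lay at the limit. It was lost without control replicate 1 or 2 or without EtOH 1 h replicate 2. A pair of tRNA genes of the region were not analysed here. The table row YPR002C-A, which the annotation used here does not place, had 0 to 47 counts. Whether reads were counted by strand is not given in the sources used here.

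**Figure D3:**
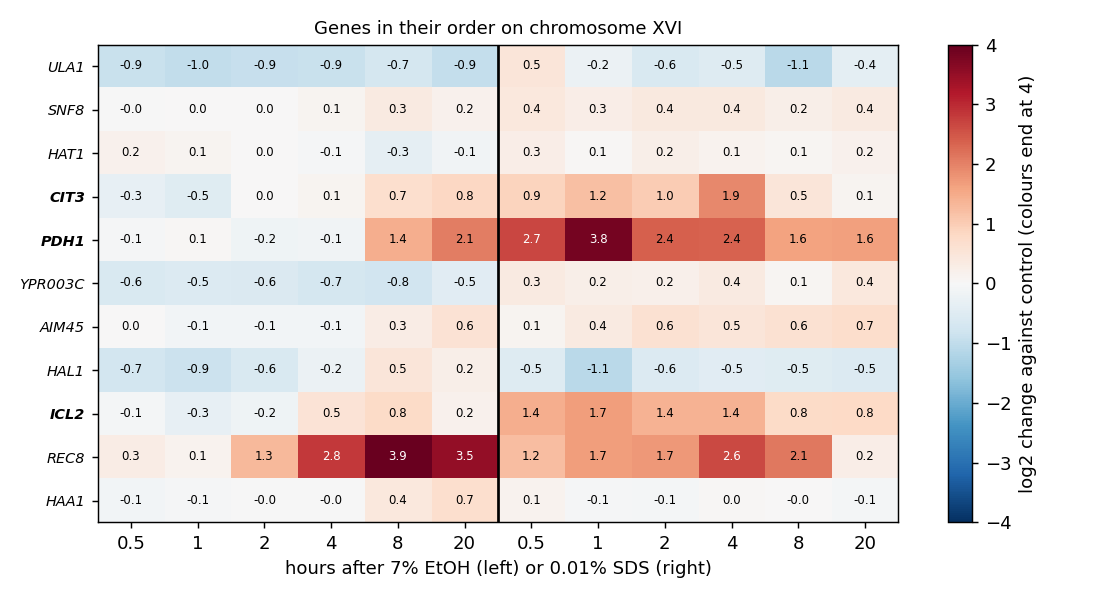
Log2 change against control of CIT3, PDH1, ICL2 (bold) and the other 8 tested genes in their order along chromosome XVI, for 6 times of 7% EtOH (left) and of 0.01% SDS (right); colours end at 4 in either direction. PDH1 reached 3.84 at 1 h of SDS while YPR003C, AIM45 and HAL1, between it and ICL2, were at 0.2, 0.4 and -1.1.

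The other reactions of the route were followed through 12 genes outside the 3, those of aconitase, acetyl-CoA synthetase and hydrolase, succinate dehydrogenase, fumarase, malate dehydrogenase and pyruvate carboxylase. Counts of the lists below are of genes called at 1 or more times, which 18.5% of all tested genes were in EtOH and 26% in SDS. In EtOH 2 of the 12 were called higher and 4 lower at 1 or more times, and in SDS 6 were called higher and 0 lower. At 8 h of EtOH the median log2 change of these 12 was -0.56, beside 0.01 over all genes. At 0.5 h of SDS it was 0.88, beside 0.02 over all genes. ACO1, the mitochondrial aconitase that also serves the citric acid cycle, moved in opposite directions in the 2 stresses. It fell to 158 ± 14.9 CPM at 8 h of EtOH and rose to 4683 ± 294 CPM at 1 h of SDS, against 767 ± 20.0 CPM in the controls (SD, n = 3 each), log2 changes of -2.28 ± 0.16 (edgeR adjusted p = 4.75e-12) and 2.61 ± 0.17 (edgeR adjusted p = 2.53e-14). SDH4, a membrane subunit of succinate dehydrogenase, rose in log2 level by 1.26 ± 0.18 at 0.5 h of SDS (edgeR adjusted p = 1.87e-07).

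PYC1, a pyruvate carboxylase that makes oxaloacetate, rose late in EtOH and early in SDS. Its log2 change was 2.16 ± 0.23 at 20 h of EtOH (edgeR adjusted p = 5.79e-09) and 2.39 ± 0.24 at 0.5 h of SDS (edgeR adjusted p = 2.57e-10). ACS1, an acetyl-CoA synthetase, rose in log2 level by 1.38 ± 0.17 at 20 h of EtOH (edgeR adjusted p = 5.14e-08) and by 1.01 ± 0.17 at 0.5 h of SDS (edgeR adjusted p = 5.11e-06). Of these named genes, ACS1 and PYC1 thus rose in both stresses at times when PDH1 also stood above its control level.

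Among 9 genes of the citrate synthase paralogues and the glyoxylate cycle, 2 rose in EtOH and 6 in SDS at 1 or more times, and 0 fell in either. The 2 of 9 in EtOH (22.2%) stood near the 18.5% of all genes. CIT1, the citrate synthase of the citric acid cycle, rose at 1 h of SDS to 874 ± 132 CPM, against 186 ± 20.6 CPM in the controls, a log2 change of 2.23 ± 0.13 (edgeR adjusted p = 6.5e-15). It was called in no EtOH group. CIT2, the peroxisomal citrate synthase and a classic retrograde target, rose at every time in both stresses, with a log2 change of at most 1.74 ± 0.29 at 0.5 h of EtOH (edgeR adjusted p = 0.000111) and 3.38 ± 0.31 at 4 h of SDS (edgeR adjusted p = 1.25e-10). CIT3, the third paralogue, had its own highest level at that same 4 h of SDS. ICL1, the isocitrate lyase related to ICL2, was called in no comparison with the control and had log2 changes of -0.11 ± 0.13 at 0.5 h of EtOH and -0.97 ± 0.13 at 1 h of SDS (edgeR adjusted p = 4.19e-07). ICL2 had a log2 change of 1.67 in these SDS libraries. At 4 h of SDS, AGX1 rose in log2 level by 1.56 ± 0.20 (edgeR adjusted p = 7.36e-08) and IDP2 by 1.35 ± 0.16 (edgeR adjusted p = 1.74e-08). MLS1 rose in log2 level by 1.22 ± 0.17 at 1 h of SDS (edgeR adjusted p = 3.18e-07). No 50-base stretch of the coding sequence of CIT1, CIT2, CIT3, ICL1, ICL2 or PDH1 occurred more than once in the genome, so reads of that length would not be shared between the paralogues.

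Threonine, isoleucine and fatty acid breakdown were followed through 16 genes, as possible sources of propionyl-CoA. Of these, 4 rose and 1 fell in EtOH, and 6 rose and 1 fell in SDS. Whether each route yields propionyl-CoA in these cells was not tested. POX1, the first enzyme of peroxisomal fatty acid oxidation, rose in log2 level by 1.92 ± 0.30 at 20 h of EtOH (edgeR adjusted p = 3.13e-06) and by 4.10 ± 0.29 at 4 h of SDS (edgeR adjusted p = 2.28e-13). FOX2, the next enzyme, rose in log2 level by 2.15 ± 0.11 at 4 h of SDS (edgeR adjusted p = 1.88e-16). CHA1, the catabolic serine and threonine deaminase, rose in log2 level by 1.56 ± 0.33 at 20 h of EtOH (edgeR adjusted p = 0.000136) and fell at 0.5 h of SDS by 3.45 on the log2 scale (edgeR adjusted p = 8.82e-10). BAT1, a branched-chain aminotransferase, fell at 8 h of EtOH by 1.60 on the log2 scale (edgeR adjusted p = 4.82e-07).

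Of 15 regulators of growth on non-fermentable carbon, 3 rose and 2 fell in EtOH, and 2 rose and 2 fell in SDS. The 4 of 15 called in SDS (26.7%) stood at the 26% of all genes, and 5 of 15 (33.3%) were called in EtOH, beside 18.5%. SIP4, whose product binds the element matched in the PDH1 and CIT3 windows, rose in log2 level by 5.59 ± 0.59 at 20 h of EtOH (edgeR adjusted p = 3.56e-09) and by 3.54 ± 0.67 at 4 h of SDS (edgeR adjusted p = 5.06e-05). It had 28.1 ± 22.7 CPM and 6.80 ± 0.08 CPM in these 2 groups, against 0.551 ± 0.421 CPM in the controls (SD, n = 3 each). Its log2 change at 20 h of EtOH was 4.70 without EtOH 20 h replicate 3 and 6.30 without control replicate 1, and that at 4 h of SDS was 4.25 without control replicate 1. SIP4 was also called at 0.5, 1, 2, 4 and 8 h of EtOH, at 3.14, 3.43, 4.14, 4.50 and 5.05. In SDS it was called at 0.5, 1 and 2 h, at 2.39, 2.15 and 2.88. From 0.5 to 4 h of EtOH, PDH1 lay between -0.16 and 0.06 and CIT3 between -0.49 and 0.12. A link of SIP4 with these genes was not tested. CAT8, the other activator of that element, was not called against control at any time and had log2 changes of -0.92 ± 0.17 at 0.5 h of EtOH and 0.85 ± 0.15 at 4 h of SDS. ADR1 rose in log2 level by 2.31 ± 0.25 at 20 h of EtOH (edgeR adjusted p = 3.92e-09) and by 1.84 ± 0.24 at 4 h of SDS (edgeR adjusted p = 2.17e-07). MIG2, a glucose-dependent repressor, fell in both stresses, by 1.87 on the log2 scale at 2 h of EtOH (edgeR adjusted p = 8.93e-06) and by 2.41 at 20 h of SDS (edgeR adjusted p = 6.39e-08). HAP4, the regulated subunit of the Hap2/3/4/5 complex, also fell in both, by 1.59 on the log2 scale at 2 h of EtOH (edgeR adjusted p = 4.02e-05) and by 1.29 at 0.5 h of SDS (edgeR adjusted p = 4.47e-05).

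Of 19 known targets of these regulators, ADR1 and IDP2 of the lists above among them, 10 rose and 3 fell in EtOH, and 10 rose and 2 fell in SDS. PCK1, the phosphoenolpyruvate carboxykinase of gluconeogenesis, rose in log2 level by 2.02 ± 0.16 at 20 h of EtOH (edgeR adjusted p = 7.61e-12) and by 4.84 ± 0.15 at 4 h of SDS (edgeR adjusted p = 2.64e-22). CRC1, the mitochondrial carnitine carrier, rose in log2 level by 4.69 ± 0.47 at 20 h of EtOH (edgeR adjusted p = 1.44e-09) and by 3.39 ± 0.50 at 4 h of SDS (edgeR adjusted p = 1.37e-06). ALD4, a mitochondrial aldehyde dehydrogenase, fell by 2.51 on the log2 scale at 0.5 h of EtOH (edgeR adjusted p = 2.34e-06) and by 1.97 at 8 h of SDS (edgeR adjusted p = 8.85e-06). Of 13 genes of the weak organic acid response, 5 rose and 0 fell in EtOH, and 4 rose and 2 fell in SDS. The 4 largest log2 changes were all at 20 h of EtOH: YRO2 at 4.13 ± 0.33 (edgeR adjusted p = 1.31e-11), SPI1 at 3.67 ± 0.48 (edgeR adjusted p = 1.87e-07), AQR1 at 3.31 ± 0.28 (edgeR adjusted p = 3.59e-11) and MSN4 at 2.95 ± 0.21 (edgeR adjusted p = 9.15e-13). Without EtOH 20 h replicate 3 the log2 change of SPI1 was 2.37, below those of AQR1 and MSN4. In SDS the highest called log2 changes were 2.45 ± 0.27 at 8 h for AQR1 (edgeR adjusted p = 1.77e-08), 1.23 ± 0.49 at 0.5 h for SPI1 (edgeR adjusted p = 0.0316) and 1.07 ± 0.21 at 4 h for MSN4 (edgeR adjusted p = 6.97e-05), and YRO2 was not called.

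Over the 6 lists together, 35 of 82 genes were called at 1 or more times in EtOH, 39 of 82 in SDS and 50 of 82 between the stresses. Of all 6101 genes tested, 18.5% were called at 1 or more times in EtOH, 26% in SDS and 37.1% between the stresses. The lists were drawn up with earlier results of these data known, and these shares are a description.

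**Figure D4:**
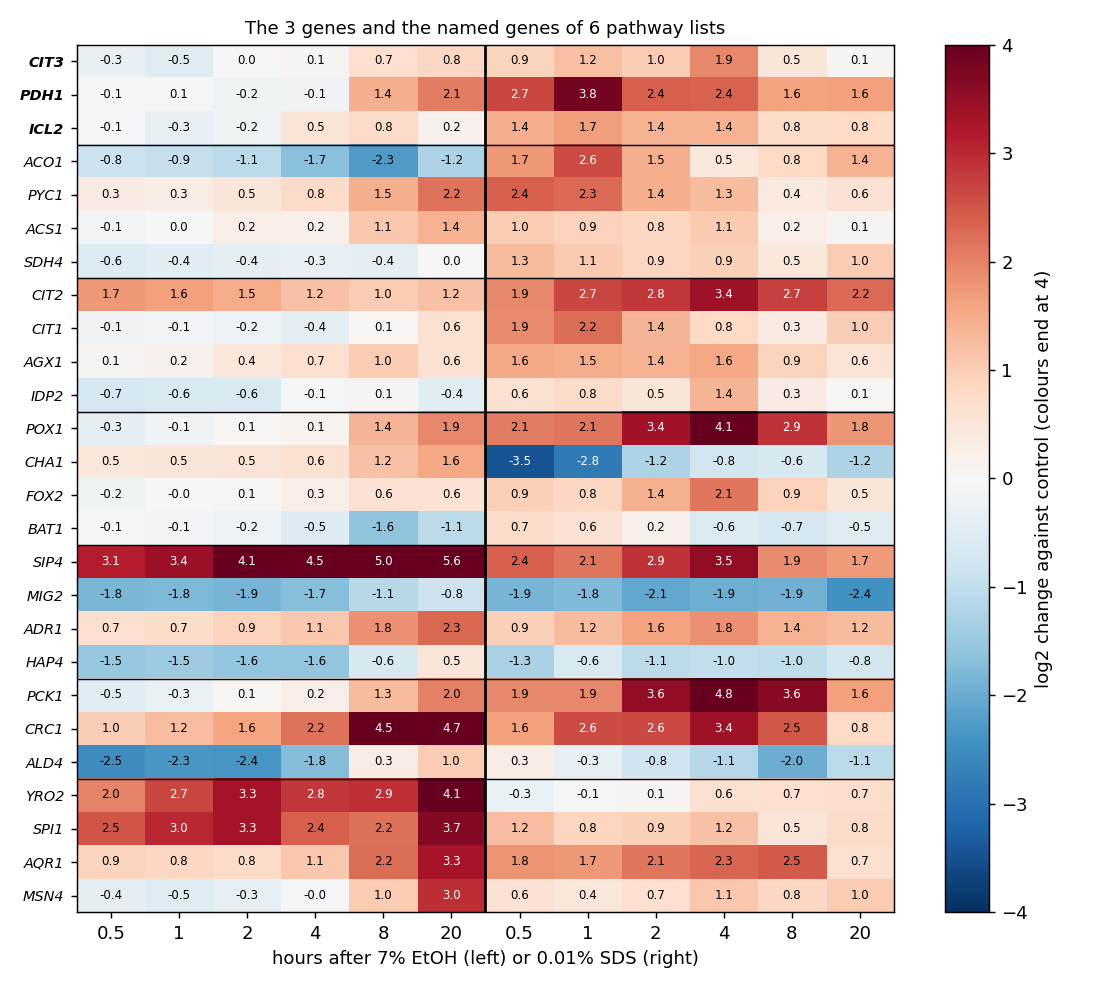
Log2 change against control of CIT3, PDH1 and ICL2 (bold) and of the genes named from 6 pathway lists (separated by lines), for 6 times of 7% EtOH (left) and of 0.01% SDS (right); colours end at 4 in either direction. ACO1 was at -2.28 at 8 h of EtOH and at 2.61 at 1 h of SDS, while PDH1 was at 1.45 and 3.84 in the same libraries.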

How the data were processed

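Poly(A) RNA of BY4741 was sequenced and reads were counted per gene by the authors. FastQC 0.11.9, Trimmomatic 0.39, STAR 2.7.8, featureCounts 2.0.1 and build R64 are named in the submitters' processing notes. How strand and multiply mapped reads were treated is not given in the sources used here. Values as deposited by the authors are raw whole-number counts, and the Saccharomyces pastorianus libraries of the series were not analysed here. Counts of all 39 libraries (3 per group, 13 groups) were scaled by TMM and fitted with edgeR 4.0.16 (R 4.3.3) after its expression filter, which left 6101 of 7127 rows and 26 residual degrees of freedom; fold changes and SEs of the 3 genes come from this fit. Gene names came from RefSeq R64, whose locus tags matched 6047 of 7127 rows. The fit was tested on simulated counts. The 3 genes, the gene lists and the tests were chosen with earlier results of these data known. Named genes were the 3, every feature between CIT3 and ICL2 and 3 on each outer side, up to 4 called genes with the largest change in each list, and the 5 genes most like each of the 3; CAT8 and MLS1 in the lists and ICL1, named beside their partners, were added with their values in view. A listed gene is not reported here and was left out of its list and its counts. Tried in turn as alternatives were RLE scaling, DESeq2 1.42.0, no expression filter, a replicate block, a fit of the compared libraries alone, and omission of each library.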

Additional observations from a re-analysis of the deposited data

Results flagged for a closer look

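For 4 pairs of gene and time, all 3 EtOH libraries lay below the control mean and all 3 SDS libraries above it. These were CIT3 at 1 h, with log2 changes of -0.49 in EtOH and 1.20 in SDS, PDH1 at 4 h, with -0.14 in EtOH and 2.35 in SDS, ICL2 at 1 h, with -0.34 in EtOH and 1.67 in SDS, and ICL2 at 2 h, with -0.18 in EtOH and 1.39 in SDS. The difference was not tested for these genes.

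For the named genes of the pathway lists, the EtOH minus SDS contrast at the time of their largest change against control was tested, and 20 of 23 were past the limits. By time, 8.67% (8 h) to 24.1% (0.5 h) of all tested genes were past the limits in this contrast. The genes and times were chosen for that change in the same libraries. The number past the limits, and the size, sign and adjusted p of these differences, thus follow in large part from the choice. The log2 differences below 0 were ACO1 at 1 h with -3.52, CIT1 at 1 h with -2.35, PYC1 at 0.5 h with -2.05, CIT2 at 4 h with -2.21, IDP2 at 4 h with -1.42, POX1 at 4 h with -3.95, FOX2 at 4 h with -1.89, PCK1 at 4 h with -4.61, SDH4 at 0.5 h with -1.83 and ALD4 at 0.5 h with -2.81. Those above 0 were CHA1 at 0.5 h with 3.91, ACS1 at 20 h with 1.28, SIP4 with 3.90, MIG2 with 1.59, ADR1 with 1.06, CRC1 with 3.88, YRO2 with 3.44, SPI1 with 2.92, AQR1 with 2.65 and MSN4 with 1.93, the last 8 at 20 h. Without EtOH 20 h replicate 3 the difference was 3.01 for SIP4 and 1.62 for SPI1. The edgeR adjusted p was highest for ADR1, at 0.000235, and lowest for PCK1, at 3.75e-22.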

How the results depend on the processing

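RLE size factors, DESeq2, no expression filter, fitting only the compared libraries and the replicate block moved no change of the 3 genes by more than the spread between replicates, and moved no count of called genes by over 1.5 times. The protocol takes both aliquots and all times from a divided culture, but the labels do not say that equal replicate numbers mark the same culture. Deviations from the group means of same-numbered libraries correlated at -0.176 to 0.18 between EtOH or SDS and control (14 of 36 pairs over 0.1), at -0.15 to 0.198 between EtOH and SDS (3 of 18) and at -0.123 to 0.407 between neighbouring times of a stress (17 of 30). Among libraries of different numbers, 3 of 72, 4 of 36 and 4 of 60 pairs of these kinds were over 0.1. The median r was 0.067, 0.039 and 0.133 for same numbers and -0.024, -0.011 and -0.06 for different numbers, in that order. Same numbers thus went with somewhat higher correlations. Deviations from a group mean cancel out within the group, however. The values for different numbers are therefore tied to those for the same numbers and are no separate baseline. A pairing by culture was not shown for all pairs, and is not excluded. With the replicate block the log2 change of ULA1 at 1 h of EtOH was -1.0 and just under the limit, the only named call lost. Leaving out 1 library at a time gave mean log2 changes over the 6 times of 0.39 to 0.64 in EtOH and 2.27 to 2.51 in SDS for PDH1, 0.02 to 0.22 in EtOH and 1.12 to 1.32 in SDS for ICL2, and 0.03 to 0.21 in EtOH and 0.82 to 1.00 in SDS for CIT3. ICL2 in SDS had 1.12 without control replicate 2, which moved by more than the spread, and the cause was not tested. The number of listed genes called at 1 or more times was then 34 to 36 in EtOH, 36 to 41 in SDS and 49 to 51 between the stresses. ULA1 at 1 h of EtOH also lost its call without control replicate 1 or 2 or EtOH 1 h replicate 2, at -1.0 to -0.90. Leaving out the EtOH 8 h libraries for the deviations within groups was chosen after seeing the data. CIT3 had as few as 41 reads in a library, which limits its small changes.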
